A study of Homo sapiens with 132 samples.

Results

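The EGR transcription factors and their NAB corepressors were followed by RNA sequencing in 4 human gastric cancer cell lines. The group holds 6 genes, EGR1, EGR2, EGR3, EGR4, NAB1 and NAB2, taken by symbol from the 65217 gene identifiers counted in every library. MKN1, MKN7, NCI-N87 (labelled N87) and Hs746T are established lines from metastatic sites of gastric carcinomas, and each was left untreated or treated for 4 h or 24 h. All 4 lines received trastuzumab (Tra, 5 μg/ml, an antibody against HER2), afatinib (Afa, 0.5 μM, an inhibitor of the EGFR family kinases) and the combination of both. MKN1 and Hs746T also received EGF (5 ng/ml, a ligand of EGFR), cetuximab (Cet, 1 μg/ml, an antibody against EGFR) and the combination of both. Each of the 44 conditions had 3 libraries, which the submitters describe as biological triplicates. The untreated libraries of a line and time point served as the control of every treatment, so the comparisons with untreated cells share them, and afatinib had no solvent control among these libraries. Each line stands for 1 tumor, so a difference between lines cannot be told apart from other differences between these tumors.

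EGR1 to EGR4 encode zinc finger transcription factors that bind a GC-rich DNA element. They are immediate early genes: growth factor receptors activate the MAPK cascade, which phosphorylates the ETS factors ELK1, ELK3 and ELK4, and these work with serum response factor (SRF) at CArG boxes in the EGR promoters. NAB1 and NAB2 do not bind DNA. They attach to EGR1, EGR2 and EGR3 and recruit the NuRD complex with its helicase CHD4. NAB2 is itself a known EGR target, so that the pair is usually described as a feedback brake on EGR activity.

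Total counts per library lay between 25832557 and 69434151, with a median of 50725775.5, so that 3 counts corresponded to between 0.0432 and 0.116 CPM. CPM values, counts set to a common library total, were scaled by the trimmed mean of M values (TMM) over all libraries. The epithelial markers EPCAM, CDH1, KRT8, KRT18 and KRT19 summed to between 4312 and 25140 CPM in MKN1, MKN7 and NCI-N87, but to between 438 and 738 CPM in Hs746T. CDH1, the epithelial cadherin, had a median of 1.998 CPM in MKN1 and 0.785 CPM in Hs746T against 243 CPM in MKN7 and 256 CPM in NCI-N87. EPCAM had a median of 25.1 CPM in MKN1, below the 35.5 CPM of Hs746T, against 626 CPM in MKN7 and 496 CPM in NCI-N87. The sum of MKN1 was thus mainly keratins, with KRT8 at a median of 11067 CPM. Fibroblast markers summed to between 485 and 892 CPM in Hs746T and to at most 41.5 CPM in the other lines, with COL1A1 and COL1A2, both collagen genes, as the main part. Endothelial markers, mainly PECAM1, summed to between 80.1 and 275 CPM in Hs746T and to at most 27.7 CPM elsewhere, and leukocyte markers to at most 0.684 CPM in any line. VWF did not follow PECAM1, with medians of 0.333 CPM in Hs746T, 1.34 in MKN1, 1.31 in NCI-N87 and 0.116 in MKN7. CDH5 had a median of at most 0.103 CPM in any line. CD68 and THY1, defining markers of macrophages and fibroblasts, were listed at 0 in every library, as were 1970 of 19674 protein-coding identifiers.

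EGR1 (ENSG00000120738) lies on chromosome 5 at 138465490 to 138469315 on the plus strand of GRCh38, and EGR2 (ENSG00000122877) on chromosome 10 at 62811996 to 62919900 on the minus strand. EGR4 (ENSG00000135625) lies on chromosome 2 at 73290929 to 73293705 on the minus strand. NAB1 (ENSG00000138386) lies on chromosome 2 at 190646746 to 190692766 and NAB2 (ENSG00000166886) on chromosome 12 at 57088894 to 57095476, both on the plus strand. Of the 3010 exon bases of NAB2, 69 overlap STAT6 on the opposite strand. NAB1 shares 186 and 10 exon bases with the antisense genes AC006460.1 and AC006460.2, and EGR3 shares 164 with AC055854.1. Whether counting used the strand is not given in the sources used here, so reads of these stretches may be lost or shared between the genes.

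The promoters are shown because EGR1 to EGR4 were all lower in MKN1 after 24 h of afatinib or cetuximab, though not after EGF. That of EGR3 is not analysed here, so the motif counts cover 3 of these 4 genes and the NAB genes. Each line holds the 250 bases before a RefSeq start site (GRCh38.p14), 5′ to 3′ in the direction of the gene. Capitals mark CArG boxes, the SRF element, and GCGNGGGCG, taken here as the EGR element with any base at N, searched on both strands. The windows are chr5:138465229-138465478 (plus strand) for EGR1, chr10:62816367-62816616 (minus) for 1 of 3 EGR2 starts, chr2:73293549-73293798 (minus) for EGR4, chr12:57088864-57089113 (plus) for NAB2 and chr2:190648833-190649082 (plus) for the middle of 3 NAB1 starts.
EGR1: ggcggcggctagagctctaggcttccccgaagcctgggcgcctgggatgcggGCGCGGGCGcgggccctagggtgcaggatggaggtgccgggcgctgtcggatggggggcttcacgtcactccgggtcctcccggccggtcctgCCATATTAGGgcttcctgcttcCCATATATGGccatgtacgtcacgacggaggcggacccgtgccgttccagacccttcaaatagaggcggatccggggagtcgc
EGR2: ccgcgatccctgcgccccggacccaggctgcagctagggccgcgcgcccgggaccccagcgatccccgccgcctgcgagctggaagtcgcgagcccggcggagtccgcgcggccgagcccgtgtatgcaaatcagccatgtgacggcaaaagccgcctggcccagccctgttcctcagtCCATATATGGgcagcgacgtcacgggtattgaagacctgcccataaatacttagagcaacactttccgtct
EGR4: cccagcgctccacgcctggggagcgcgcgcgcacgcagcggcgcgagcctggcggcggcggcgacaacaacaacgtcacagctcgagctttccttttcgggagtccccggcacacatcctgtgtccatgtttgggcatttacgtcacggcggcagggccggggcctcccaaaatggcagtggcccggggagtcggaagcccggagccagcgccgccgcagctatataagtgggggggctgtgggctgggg
NAB2: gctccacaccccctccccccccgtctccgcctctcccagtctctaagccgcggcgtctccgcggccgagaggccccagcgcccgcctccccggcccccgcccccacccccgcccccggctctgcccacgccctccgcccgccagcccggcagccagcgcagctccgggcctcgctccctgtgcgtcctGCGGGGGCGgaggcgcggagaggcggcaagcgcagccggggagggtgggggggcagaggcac
NAB1: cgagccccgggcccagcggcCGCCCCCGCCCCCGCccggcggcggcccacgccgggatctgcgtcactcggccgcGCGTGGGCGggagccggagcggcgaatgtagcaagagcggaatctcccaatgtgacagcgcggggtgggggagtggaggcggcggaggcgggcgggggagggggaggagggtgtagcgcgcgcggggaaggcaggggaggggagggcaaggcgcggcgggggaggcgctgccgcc

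The EGR1 window held 2 CArG boxes, at bases -105 to -96 and -83 to -74 before the start, and 1 EGR element, with C at N, at -198 to -190. The EGR2 window held 1 CArG box at -71 to -62, with the same letters as the nearer box of EGR1, and the windows of the other 2 EGR2 starts held none. Neither motif was found in the EGR4 window. The NAB2 window held 1 EGR element at -62 to -54 and no CArG box, and the NAB1 window held 3 EGR elements, of which 2 overlap each other and also lie in the window of the first NAB1 start. The window of the last NAB1 start held neither motif. For EGR2 and NAB1 the window shown is thus the one with the most motifs. A CArG box was present in 1.16% of 35116 RefSeq windows of this length, 2 or more in 0.0313%, and the EGR element in 8.41%. These are letter matches, and no binding was measured.

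In untreated cells EGR1 was the most abundant EGR gene in all 4 lines and EGR3 exceeded 15 counts per library only in MKN1. Levels between genes are given per length, as CPM per kilobase of exon. At 4 h EGR1 stood at 30.1 ± 12.8 (SD, n = 3) in MKN1, 55.96 ± 37.6 in NCI-N87, 10.9 ± 2.63 in MKN7 and 1.78 ± 0.687 in Hs746T. EGR2 ranged between means of 0.175 in MKN1 and 0.420 in MKN7, and EGR4 between 0.112 in Hs746T and 0.680 in MKN1. EGR3 reached 0.741 ± 0.208 in MKN1. In the other lines no library held more than 15 EGR3 reads, and 14 of 24 libraries of MKN7, 16 of 24 of NCI-N87 and 23 of 42 of Hs746T held 3 or fewer, which leaves EGR3 near the detection limit there. NAB2 was above NAB1 in every line, at 18.6 ± 1.69 against 5.65 ± 0.294 in MKN1 and 21.2 ± 3.11 against 10.3 ± 0.697 in NCI-N87. In untreated cells at 4 h EGR1 made up 77.7% ± 3.67 of the summed EGR level in Hs746T, 92.8% ± 1.89 in MKN7, 94.6% ± 1.41 in MKN1 and 98.9% ± 0.424 in NCI-N87.

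**Figure D1:**
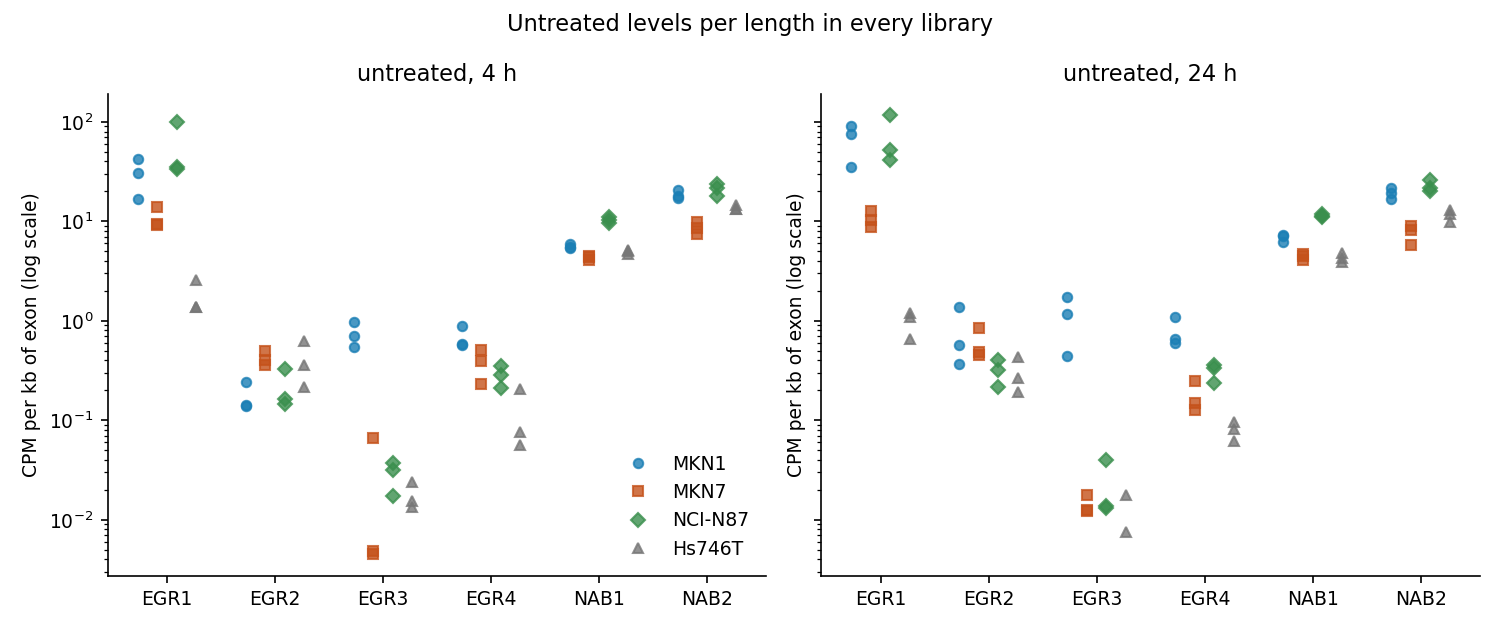
Untreated levels of the 6 genes in CPM per kilobase of exon on a log axis, 1 point per library, with 4 h on the left and 24 h on the right; an EGR3 library of Hs746T with a count of 0 at 24 h is not drawn. EGR1 spreads from about 1 in Hs746T to above 100 in NCI-N87, while NAB1 and NAB2 of all lines lie within a narrow band.

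The order of untreated EGR1 at 4 h was NCI-N87, MKN1, MKN7 and Hs746T, and the first place is the least certain. In CPM per library the values were 104, 312 and 111.01 in NCI-N87, 97.2, 52.8 and 133.3 in MKN1, 29.1, 29.6 and 43.6 in MKN7 and 8.06, 4.32 and 4.33 in Hs746T. NCI-N87 and MKN1 overlapped, and their log2FC of -0.90 ± 0.41 (MKN1 minus NCI-N87, SE) passed the test with an adjusted p of 0.0456. That call was lost with DESeq2, with either other filter on low counts and without replicate 2, which held the value of 312 CPM and without which the log2FC was 0.15 (adjusted p between 0.0154 and 0.795 over 9 alternatives). MKN1 was above MKN7 by a log2FC of 1.47 ± 0.42, and MKN7 above Hs746T by 2.61 ± 0.44. Over the 6 pairs of lines, 6 genes and both time points, 48 of 72 comparisons of untreated levels passed at FDR below 0.05, where 66.5% of the same comparisons over all genes did, so the members' share is that of the background. At 24 h EGR1 of MKN1 and NCI-N87 did not pass (log2FC -0.07 ± 0.40, adjusted p = 0.893).

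Afatinib lowered EGR1 in MKN1, MKN7 and NCI-N87, the 3 lines chosen as afatinib responders, with the largest log2FC of the 6 genes in each. Here and below, a gene was called regulated at an adjusted p (FDR) below 0.05 and a log2FC above 1 or below -1, from edgeR's quasi-likelihood test over all genes of a line. In MKN1 at 4 h EGR1 went from 97.2, 52.8 and 133.3 CPM in untreated to 7.22, 9.04 and 7.55 CPM in afatinib-treated libraries, a log2FC of -3.59 ± 0.39 (SE, adjusted p = 1.73e-07). At 24 h the untreated libraries held 235, 112 and 282 CPM and the treated ones 7.997, 6.72 and 7.89 CPM, a log2FC of -4.81 ± 0.41 (adjusted p = 2.5e-09). The groups did not overlap at either time point. All 12 calls of EGR1 with afatinib in the medium held under each alternative setting, those that left out 1 replicate included.

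In NCI-N87 at 4 h EGR1 went from 104, 312 and 111.01 CPM to 8.34, 6.44 and 6.87 CPM, a log2FC of -4.60 ± 0.56 (adjusted p = 3.79e-06). At 24 h it went from 130, 364 and 164 CPM to 5.94, 5.38 and 7.61 CPM, a log2FC of -5.15 ± 0.58 (adjusted p = 9.03e-08). Replicate 2 of NCI-N87 stood above the other replicates in untreated and trastuzumab-treated cells and not after afatinib. Within replicates 1 and 3 alone, the log2 ratios of afatinib to untreated were -3.64 and -4.01 at 4 h and -4.45 and -4.42 at 24 h.

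In MKN7 at 4 h EGR1 went from 29.1, 29.6 and 43.6 CPM to 10.9, 5.03 and 4.02 CPM, a log2FC of -2.40 ± 0.35 (adjusted p = 3.58e-05). At 24 h it went from 27.4, 32.1 and 40.2 CPM to 2.20, 1.43 and 1.59 CPM, a log2FC of -4.27 ± 0.40 (adjusted p = 3.78e-08). The afatinib effect in MKN7 was thus larger at 24 h than at 4 h, and the difference between the effects, a log2FC of -1.87 ± 0.51, passed its own test (adjusted p = 0.0139), where 9.28% of genes had a lower effect at 24 h. Without replicate 2 it did not (adjusted p = 0.109, the highest of 9 alternatives, the lowest being 0.000378). In NCI-N87 after 24 h of afatinib the epithelial keratins KRT8 and KRT18 were lower too, with log2FCs of -1.37 ± 0.17 and -1.87 ± 0.17, and their part in the EGR1 values was not tested. The other epithelial markers spanned less over all NCI-N87 libraries than these keratins. KRT19 lay between 3386 and 5979 CPM, CDH1 between 197 and 344 CPM and EPCAM between 244 and 603 CPM. In these bulk libraries, fewer cells transcribing a gene and less RNA per cell cannot be told apart.

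**Figure D2:**
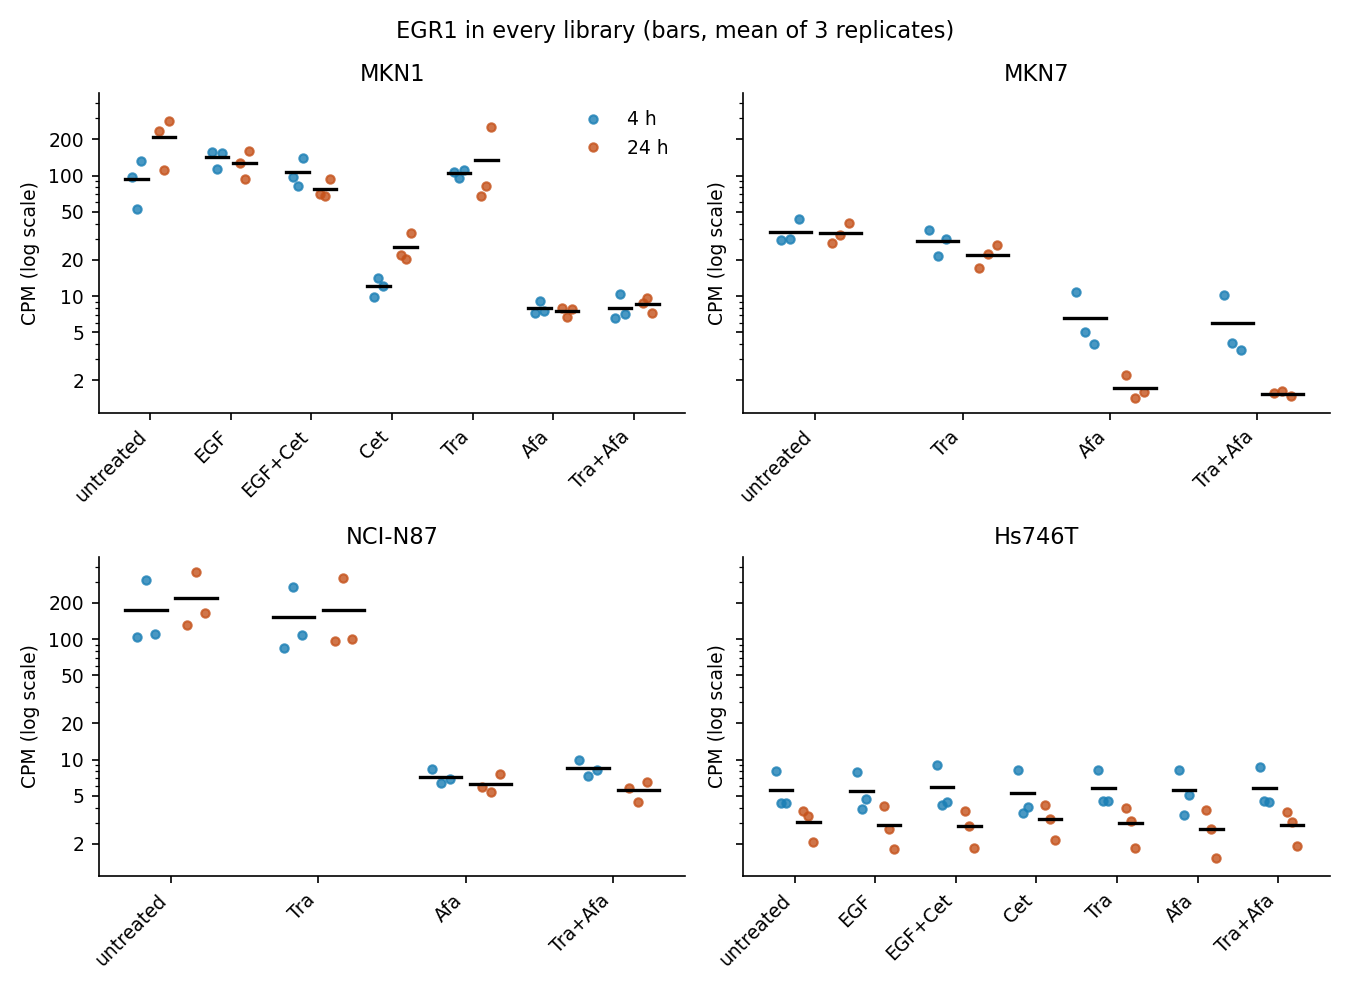
EGR1 in CPM on a log axis in every library, by treatment and cell line, with 4 h in blue and 24 h in orange; black bars are means of 3 replicates. Afatinib and trastuzumab + afatinib libraries of MKN1, MKN7 and NCI-N87 lie below all untreated libraries of their line, and the libraries of Hs746T lie between 1.52 and 9.09 CPM whatever the treatment.

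Afatinib lowered EGR2 in the same 3 lines as EGR1, at 24 h in MKN1, at both time points in MKN7 and at 4 h in NCI-N87, and EGR3 and EGR4 in MKN1. Their log2FCs were smaller than that of EGR1 in the same line and time point. EGR3 (ENSG00000179388) lies on chromosome 8 at 22687659 to 22693302 on the minus strand. In MKN1 at 4 h 3 of 6 genes were regulated, all lower (EGR1, EGR3 and EGR4), where 0.439% of the 19815 genes tested were lower. At 24 h 4 of 6 were regulated, all lower (EGR1 to EGR4), where 1.02% of genes were. EGR3 in MKN1 went from 3.45, 2.67 and 4.67 CPM to 1.05, 1.23 and 0.949 CPM at 4 h, a log2FC of -1.75 ± 0.42 (adjusted p = 0.0126). At 24 h it went from 8.37, 2.17 and 5.72 CPM to 0.342, 0.322 and 0.508 CPM, a log2FC of -3.81 ± 0.48 (adjusted p = 6.96e-07). EGR4 in MKN1 had a log2FC of -1.30 ± 0.27 at 4 h and -2.84 ± 0.30 at 24 h, and the difference between the time points passed its test (-1.54 ± 0.41, adjusted p = 0.0364), where 1.43% of genes were lower. EGR2 in MKN1, at 0.521, 0.514 and 0.898 CPM untreated and 0.119, 0.409 and 0.0895 CPM after 4 h of afatinib, did not pass (log2FC -1.62 ± 0.55, adjusted p = 0.103). At 24 h it went from 5.07, 1.37 and 2.13 CPM to 0.288, 0.303 and 0.183 CPM, and its log2FC of -3.46 ± 0.47 passed (adjusted p = 2.25e-06). Replicate 1 held the highest untreated EGR2 and EGR3 values at 24 h, and replicate 2 the lowest. The 4 calls at 24 h held without any 1 of the replicates, whereas EGR3 at 4 h was not called without replicate 1, 2 or 3 (adjusted p between 0.000719 and 0.138 over 9 alternatives) and EGR4 at 4 h not without replicate 2 or 3 (0.000281 to 0.062). The time difference of EGR4 was not called without replicate 1, 2 or 3 either (0.00796 to 0.352).

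In MKN7 2 of 6 genes were regulated at 4 h, EGR1 and EGR2, where 1.59% of 18483 genes were lower, and 3 of 6 at 24 h, EGR1, EGR2 and NAB2, where 3.25% were. EGR2 in MKN7 had a log2FC of -1.08 ± 0.36 at 4 h (adjusted p = 0.0363) and -2.38 ± 0.38 at 24 h (adjusted p = 2.18e-05). The 4 h call was lost without replicate 1, 2 or 3 (adjusted p between 0.00545 and 0.261 over 8 alternatives). The difference between the time points was -1.29 ± 0.53, which passed only with the replicate number as a block (-1.24, adjusted p = 0.0327) or with no filter (range 0.0327 to 0.313). In NCI-N87 2 of the 5 genes that passed the filter on low counts were regulated at 4 h, EGR1 and EGR2, where 1.22% of 19078 genes were lower. At 24 h 2 of 5 were, EGR1 and NAB2, where 11.5% were lower. EGR2 in NCI-N87 had a log2FC of -1.20 ± 0.40 at 4 h (adjusted p = 0.0402), while at 24 h its libraries held 0.798, 1.47 and 1.17 CPM untreated and 0.489, 0.959 and 0.907 CPM treated and did not pass the test. The 4 h call was lost without replicate 1, 2 or 3, with library size alone as scaling and with only the compared groups in the fit (adjusted p between 0.00612 and 0.173 over 8 alternatives). EGR4 was not regulated in either line: its log2FCs were -1.42 ± 0.54 and -1.12 ± 0.61 in MKN7 and -0.70 ± 0.32 and -0.81 ± 0.32 in NCI-N87, of which the last had an adjusted p of 0.0337 and fell short of the fold limit. With the replicate number as a block EGR4 was called in MKN7, with a log2FC of -1.55 at 4 h and -1.11 at 24 h (adjusted p = 0.00253 and 0.0383, the lowest of 8 alternatives at each time, the highest being 0.482 and 0.678). EGR3 was not tested in NCI-N87 and Hs746T, where it did not pass the filter.

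**Figure D3:**
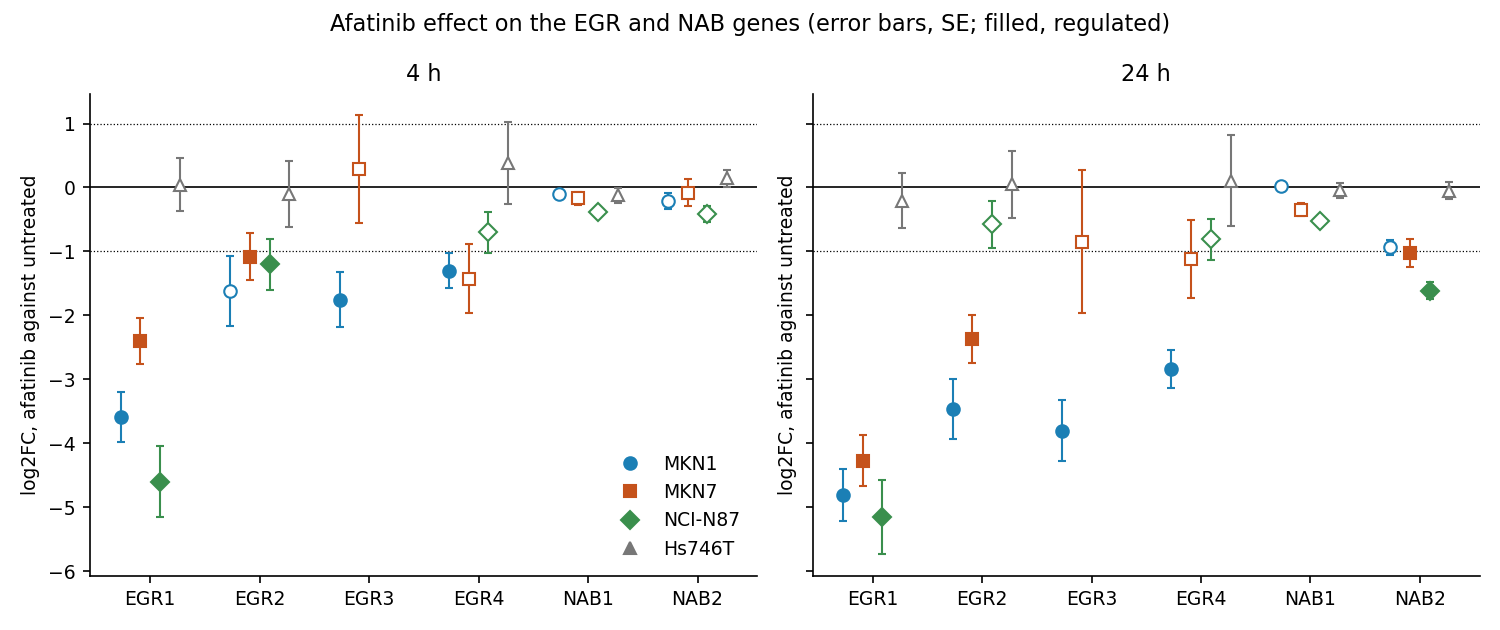
log2FC of afatinib against untreated cells for each gene and cell line, 4 h on the left and 24 h on the right, with SE as error bars, filled symbols for regulated genes and dotted lines at log2FC -1 and 1. EGR1 is the lowest point of each of the 3 responding lines at both time points, and NAB2 passes -1 at 24 h in MKN7 and NCI-N87.

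NAB2, the corepressor gene that is itself an EGR target, was lower after 24 h of afatinib in 3 lines, past the fold limit in MKN7 and NCI-N87. In NCI-N87 at 24 h its libraries held 60.8, 65.4 and 78.1 CPM untreated and 21.2, 23.4 and 23.6 CPM treated. The log2FC of -1.61 ± 0.13 had an adjusted p of 5.44e-10. In MKN7 at 24 h it went from 24.4, 17.5 and 26.99 CPM to 13.5, 9.72 and 10.9 CPM, with -1.02 ± 0.21 as log2FC and 0.000437 as adjusted p. It fell under the fold limit without replicate 3 (log2FC -0.88), with library size alone (-0.91) and with 10 counts required in every library (-0.99). In MKN1 at 24 h it went from 50.5, 57.8 and 65.6 CPM to 30.4, 32.2 and 29.4 CPM. That log2FC of -0.94 ± 0.12 had an adjusted p of 1.05e-06 and fell short of the fold limit. At 4 h the log2FCs were -0.42 ± 0.12 in NCI-N87 (adjusted p = 0.0211), -0.21 ± 0.12 in MKN1 and -0.08 ± 0.21 in MKN7. The later effect differed from the earlier one in each of the 3 lines, by -0.73 ± 0.17 in MKN1, -0.94 ± 0.30 in MKN7 and -1.19 ± 0.18 in NCI-N87 (adjusted p = 0.0147, 0.0327 and 2.15e-05), where 1.43%, 9.28% and 20.5% of genes were lower. In MKN1 that difference was not called without replicate 1, 2 or 3 (adjusted p between 0.00135 and 0.29 over 9 alternatives) and in MKN7 not without replicate 1 or 3 (9.06e-06 to 0.24), while in NCI-N87 each alternative called it. Over all 6 genes 5 of 22 such time differences were called, and 8 with the replicate number as a block. The share of all genes called with that block is not given here. STAT6, which overlaps NAB2, stood at 275 ± 31.6 CPM untreated and 480 ± 11.7 CPM after 24 h of afatinib in NCI-N87, so that its direction was the opposite.

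NAB1 passed the fold limit in no treatment and line. After afatinib in NCI-N87 it went from 50.6, 53.6 and 46.8 CPM to 38.5, 39.8 and 37.2 CPM at 4 h, a log2FC of -0.38 ± 0.08 (adjusted p = 0.00113). At 24 h it had a log2FC of -0.53 ± 0.08 (adjusted p = 4.25e-06) there and of -0.35 ± 0.10 in MKN7 (adjusted p = 0.00623), all without overlap of the groups and all under the fold limit. In MKN1 the log2FC at 24 h was 0.02 ± 0.06 (approximate 95% interval -0.11 to 0.14). The NAB1 effect at 24 h differed between MKN1 and NCI-N87 by 0.53 ± 0.14 (adjusted p = 0.00153). With library size alone that difference was 0.37 and no longer called, nor was it without replicate 3 (adjusted p between 8.71e-07 and 0.104 over 9 alternatives).

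**Figure D4:**
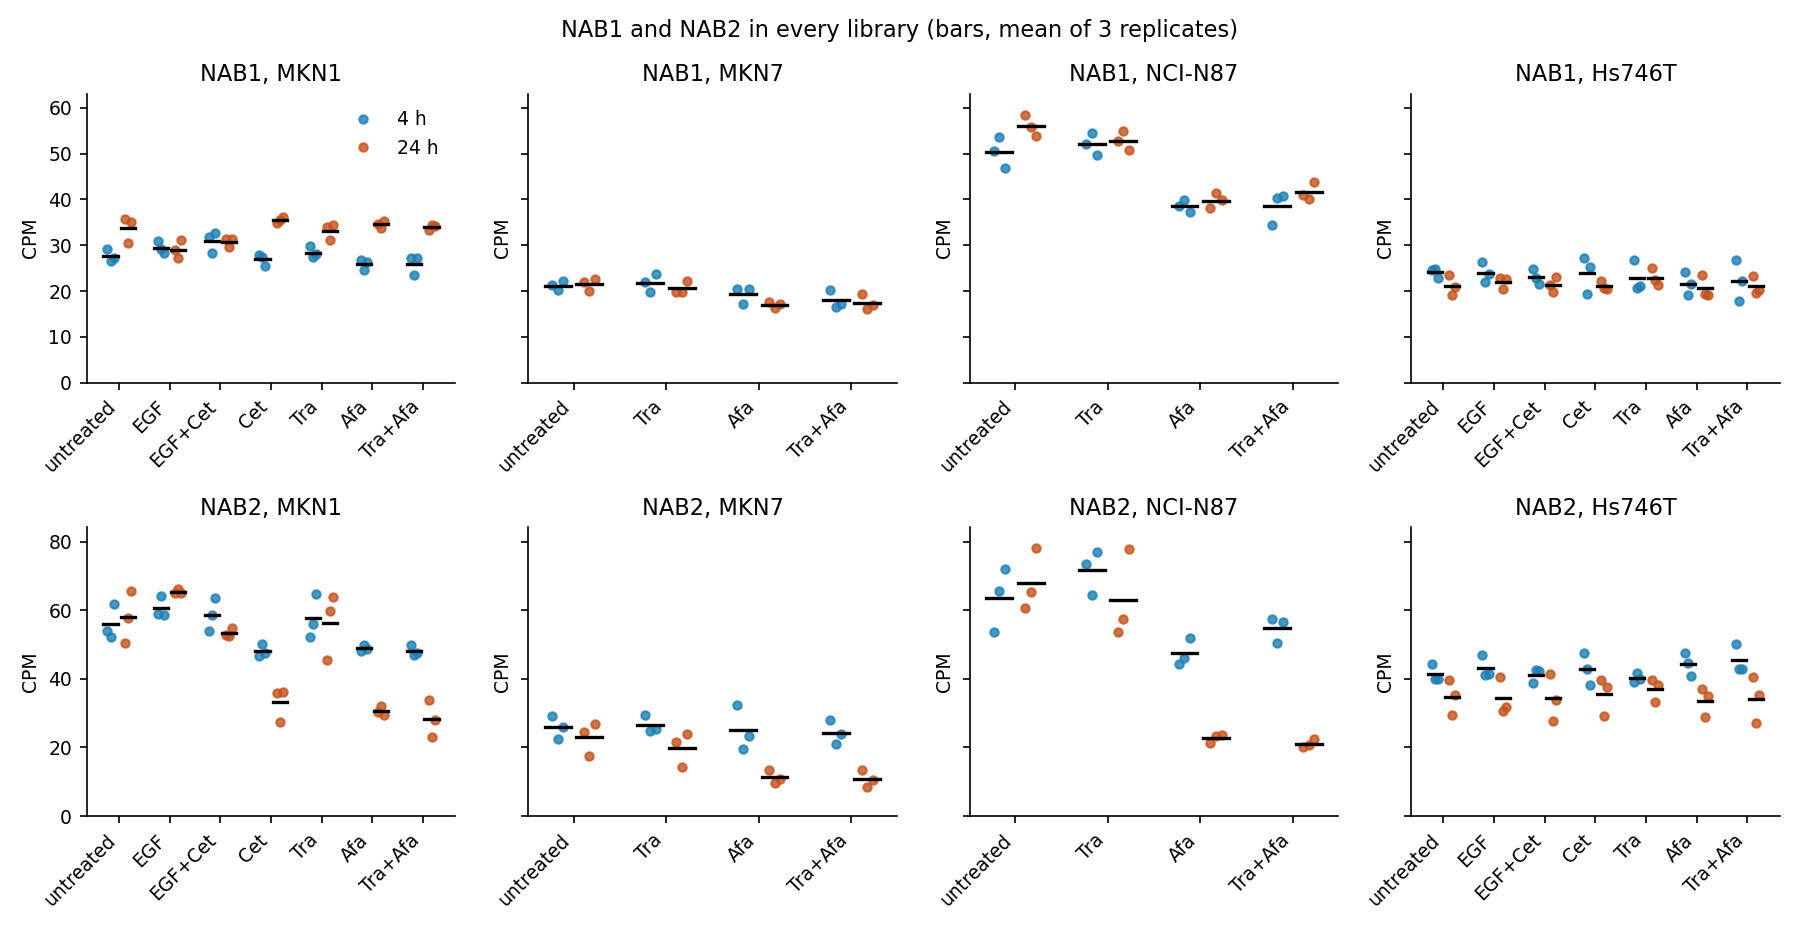
NAB1 (top) and NAB2 (bottom) in CPM in every library on axes that start at 0, by treatment and cell line, with 4 h in blue, 24 h in orange and means of 3 replicates as black bars. NAB2 at 24 h lies between 20.1 and 23.6 CPM in NCI-N87 with afatinib in the medium and at 53.7 CPM or above without it, while NAB1 never leaves the range of 34.4 to 58.5 CPM in that line.

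Summed per length, the EGR genes stood near or above the NAB genes in 3 untreated lines at 24 h and well below them after afatinib. In untreated NCI-N87 at 24 h the 4 EGR genes together stood at 2.09 ± 1.24 times the sum of NAB1 and NAB2, and after afatinib at 0.154 ± 0.0218 times. In MKN1 at 24 h the ratio was 2.64 ± 1.03 untreated and 0.154 ± 0.0159 after afatinib, and in MKN7 0.952 ± 0.186 and 0.104 ± 0.0153. Untreated Hs746T stood at 0.122 ± 0.0444 at 4 h and 0.0863 ± 0.0236 at 24 h. These ratios are descriptions, given as mean ± SD over 3 libraries, and transcripts need not mirror protein. The EGR sum counts all 4 EGR genes, whether or not the NAB proteins attach to each product.

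Trastuzumab regulated none of the 6 genes in any line or at any time. It gave 0 of 44 calls with edgeR and 0 with DESeq2, where no gene of any line was regulated (0% of genes tested), and 2 of 44 had an unadjusted p below 0.05. Those were EGR2 and EGR4 in MKN1 at 24 h, where the trastuzumab libraries themselves spread widely, EGR2 at 0.770, 0.853 and 2.46 CPM. In NCI-N87, described as the trastuzumab responder, EGR1 under trastuzumab stood at 83.9, 269.6 and 108.6 CPM at 4 h and at 96.3, 322 and 101.1 CPM at 24 h, overlapping untreated cells. The log2FCs were -0.19 ± 0.47 and -0.36 ± 0.47, with approximate 95% intervals of -1.12 to 0.74 and -1.29 to 0.57, so that a log2FC of -1 lay inside both. Within each replicate number the trastuzumab library was below the untreated one, and with that number as a block the log2FCs were -0.18 and -0.41 (adjusted p = 0.913 and 0.634).

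Adding trastuzumab to afatinib gave 18 of 44 calls against untreated cells, all lower, next to 16 for afatinib alone. The 2 lists share the untreated controls. In MKN1 3 of 6 genes were called at 4 h and 5 of 6 at 24 h, where 0.49% and 1.12% of genes were lower, and in MKN7 3 of 6 at each time, where 1.76% and 3.28% were. In NCI-N87 2 of 5 were called at each time, where 1.28% and 12.2% were. The trastuzumab + afatinib calls not made for afatinib alone were EGR4 in MKN7 at 4 h (log2FC -1.84 ± 0.56) and NAB2 in MKN1 at 24 h (-1.06 ± 0.12). The former was lost without replicate 2 or 3 (adjusted p between 0.000389 and 0.25 over 8 alternatives), and the latter fell under the fold limit without replicate 2 (-0.92) or 3 (-0.96) and with library size alone (-0.94). Compared directly, the combination and afatinib alone gave 0 of 44 calls with edgeR, 0 with DESeq2 and 0 with an unadjusted p below 0.05, where 0% of all comparisons over genes were called. For EGR1 the direct log2FC lay between -0.17 and 0.22 over the 3 responding lines and both time points, and its widest approximate 95% interval ran from -1.22 to 0.87 in NCI-N87 at 24 h. For EGR3 in MKN7 at 24 h, with 1 to 3 counts per library, the interval ran from -3.58 to 1.87.

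In MKN1, described as the cetuximab responder, cetuximab lowered EGR1 to EGR4, measured against the same untreated libraries as afatinib. At 4 h 3 of 6 genes were regulated, all lower (EGR1, EGR3 and EGR4), where 0.257% of genes were lower, and at 24 h 4 of 6 (EGR1 to EGR4), where 0.328% were. EGR1 stood at 9.90, 14.2 and 12.2 CPM at 4 h, a log2FC of -2.97 ± 0.38 (adjusted p = 9.94e-06), and at 21.9, 20.5 and 33.7 CPM at 24 h, a log2FC of -3.06 ± 0.37 (adjusted p = 8.15e-06). EGR3 had log2FCs of -1.67 ± 0.43 and -3.25 ± 0.45, EGR4 of -1.32 ± 0.28 and -1.49 ± 0.26, and EGR2 at 24 h of -2.67 ± 0.44. EGR2 at 4 h, with 25 counts over 3 cetuximab libraries, did not pass (log2FC -1.89 ± 0.58, adjusted p = 0.109), but did with the replicate number as a block (-1.90, adjusted p = 0.0476) and with DESeq2 (range 0.0152 to 0.707 over 8 alternatives). The EGR1 calls and those at 24 h held in each alternative. At 4 h EGR3 was lost without replicate 1, 2 or 3 and with library size alone (0.00221 to 0.306), and EGR4 without replicate 1 or 3 and with only the compared groups in the fit (0.000479 to 0.272). NAB2 at 24 h had a log2FC of -0.83 ± 0.12 (adjusted p = 5.57e-05), short of the fold limit.

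Afatinib and cetuximab act on the receptor in different ways, as a kinase inhibitor and as an antibody against its outer part, and were compared directly in MKN1. edgeR called none of the 6 genes at either time, where 0.0052% of all comparisons over genes were called, and 2 of 22 comparisons in MKN1 and Hs746T had an unadjusted p below 0.05. EGR1 at 24 h was nearest, at a mean of 7.54 CPM after afatinib and 25.4 CPM after cetuximab (log2FC -1.75 ± 0.37, adjusted p = 0.0534), and EGR4 followed (-1.35 ± 0.33, adjusted p = 0.137). The afatinib and cetuximab libraries did not overlap for either gene at 24 h. DESeq2 called both, and the adjusted p over 9 alternatives ran from 0.00143 to 0.816 for EGR1 and from 0.0195 to 0.816 for EGR4. At 4 h the approximate 95% interval of the EGR1 difference was -1.34 to 0.11, and that of NAB2 -0.22 to 0.25.

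EGF raised EGR2, EGR3 and EGR4 in MKN1 at 4 h, whereas EGR1 did not pass the test. These were 3 of 6 genes, where 1.23% of genes were higher. EGR3 went from 3.45, 2.67 and 4.67 CPM to 12.5, 11.1 and 14.2 CPM, a log2FC of 1.82 ± 0.38 (adjusted p = 0.00166). EGR2 went from 0.521, 0.514 and 0.898 CPM to 2.88, 2.29 and 2.20 CPM, a log2FC of 1.96 ± 0.43 (adjusted p = 0.00283). EGR4 went from 1.39, 1.37 and 2.09 CPM to 4.27, 3.98 and 4.01 CPM, a log2FC of 1.35 ± 0.24 (adjusted p = 0.000226). EGR1 stood at 158, 114.3 and 153.9 CPM with EGF and at 97.2, 52.8 and 133.3 CPM without, so that the groups overlapped (log2FC 0.60 ± 0.35, adjusted p = 0.407). Within each replicate number the EGF library was the higher one, and with that number as a block the log2FC was 0.63 (adjusted p = 0.106) and EGR1 was still not called. That does not show that EGF left EGR1 unchanged. No library was taken before 4 h, so an earlier change would not be seen. Without replicate 1 only EGR4 of the 3 calls held, and the adjusted p rose to 0.0785 for EGR2 and 0.0601 for EGR3, the highest over their alternatives (lowest 0.000331 and 8.53e-06).

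At 24 h EGR2 was lower with EGF. It stood at 0.664, 0.744 and 1.19 CPM with EGF against 5.07, 1.37 and 2.13 CPM untreated, a log2FC of -1.69 ± 0.41 (adjusted p = 0.00151), where 6.24% of genes were lower. None of the other 5 genes was regulated. Replicate 1 carried the untreated value of 5.07 CPM, and without it the log2FC was -0.82 and not called (adjusted p between 0.000269 and 0.223 over 8 alternatives). The EGF effect at 24 h was different from that at 4 h (24 h minus 4 h) by -3.65 ± 0.60 for EGR2, -2.15 ± 0.54 for EGR3, -1.34 ± 0.34 for EGR4 and -0.30 ± 0.09 for NAB1, where 4.85% of genes differed in that direction (adjusted p = 0.000192, 0.00938, 0.0115 and 0.0314). In the untreated cells shared by these effects, EGR2 was higher at 24 h than at 4 h by a log2FC of 2.14 ± 0.43, EGR1 by 1.12 ± 0.35 and NAB1 by 0.27 ± 0.06, where 17.7% of genes were higher. The untreated EGR1 libraries of the 2 time points overlapped. Without replicate 1 none of these 4 EGF differences and 3 untreated differences was called, with log2FCs of -2.50, -1.59, -0.85 and -0.27 for the former and 1.29, 1.06 and 0.27 for the latter. The EGF differences of EGR3 and EGR4 were also lost without replicate 2, and that of NAB1 without replicate 3, with no filter and with only the compared groups in the fit. The untreated difference of NAB1 was lost without replicate 3 too. In untreated Hs746T EGR1 was at 3.06 CPM at 24 h and 5.57 CPM at 4 h, a difference that passed only with the replicate number as a block (log2FC -0.84, adjusted p = 0.0037, with 9 alternatives between 0.0037 and 1).

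**Figure D5:**
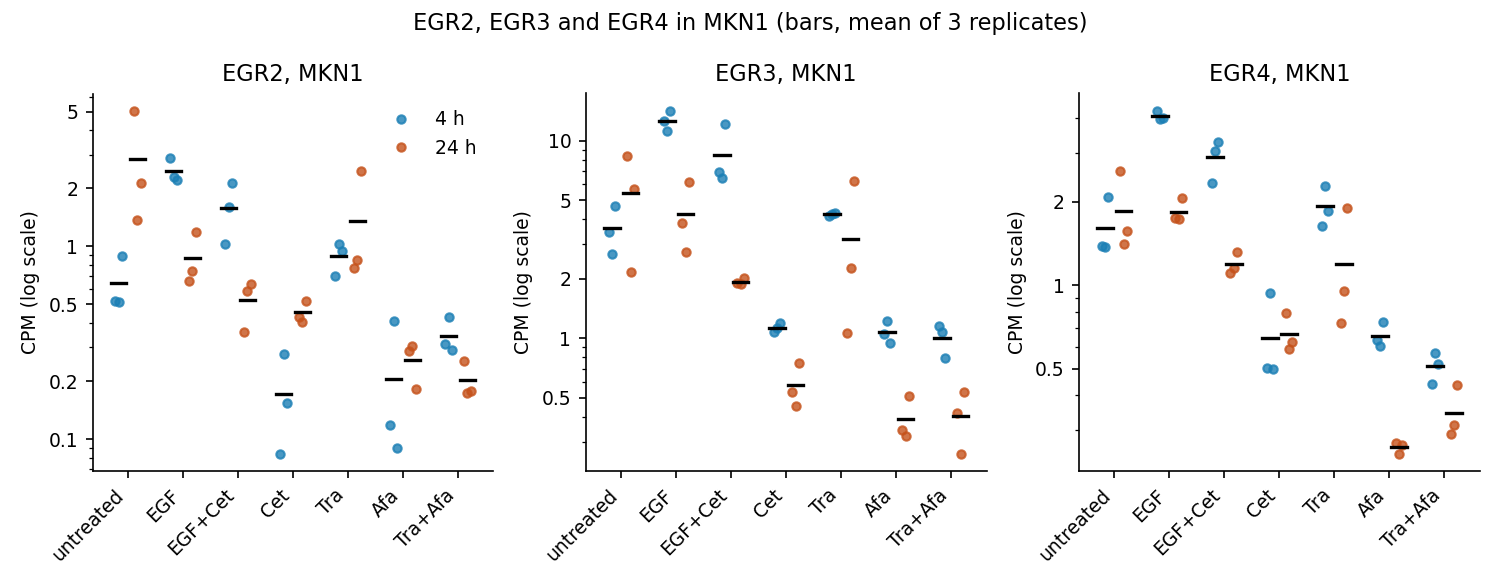
EGR2, EGR3 and EGR4 in CPM on log axes in every MKN1 library, by treatment, with 4 h in blue, 24 h in orange and means of 3 replicates as black bars. At 4 h EGF libraries lie above and cetuximab, afatinib and trastuzumab + afatinib libraries below all untreated libraries for each gene.

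With cetuximab added to EGF, no member was called against untreated cells at 4 h, and EGR1, EGR2 and EGR3 lay below untreated at 24 h. At 4 h EGF + cetuximab gave log2FCs against untreated of 1.32 ± 0.44 for EGR2, 1.25 ± 0.38 for EGR3 and 0.86 ± 0.25 for EGR4, with adjusted p of 0.28, 0.189 and 0.128, although the groups did not overlap for these genes. With the replicate number as a block EGR3 was called (1.23, adjusted p = 0.00733, the lowest of 9 alternatives, the highest being 0.766). At 24 h 3 of 6 genes were regulated, all lower, where 2.84% of genes were: EGR1 with a log2FC of -1.43 ± 0.35, EGR2 with -2.44 ± 0.43 and EGR3 with -1.48 ± 0.40. None of the 3 was called without replicate 1, where the log2FCs were -1.27, -1.50 and -1.002. The direct comparison of EGF + cetuximab with EGF called none of 22 with edgeR or DESeq2, where 0.0728% of all comparisons over genes were called, and 5 of 22 had an unadjusted p below 0.05, all in MKN1 and all lower with cetuximab. EGR3 at 24 h, at 1.90, 1.88 and 2.01 CPM against 3.84, 2.73 and 6.19 CPM, had the largest of these differences (log2FC -1.15 ± 0.40, adjusted p = 0.232).

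In Hs746T no member was regulated by any of the 6 treatments. None of its 60 comparisons with untreated cells was called by edgeR or DESeq2 and none had an unadjusted p below 0.05, and no gene of the line at all was regulated (0% of 224004 comparisons over genes). EGR1 stood at 8.06, 4.32 and 4.33 CPM untreated and at 8.25, 3.44 and 5.09 CPM after 4 h of afatinib, so that replicate 1 was the highest in both groups. The log2FC was 0.04 ± 0.41, with an approximate 95% interval of -0.77 to 0.86, and at 24 h -0.21 ± 0.43 (-1.05 to 0.64). Between lines, 19 of 72 differences in the afatinib effect were called, where 11% of all such comparisons over genes were. The afatinib effect on EGR1 differed from that in Hs746T by -3.58 ± 0.62 in MKN1, -2.37 ± 0.62 in MKN7 and -4.61 ± 0.63 in NCI-N87 at 4 h, and by -4.60 ± 0.66, -4.07 ± 0.68 and -4.93 ± 0.66 at 24 h, in one fit of all libraries (largest adjusted p = 0.00876). For NAB2 at 24 h the differences were -0.87 ± 0.22, -0.97 ± 0.22 and -1.53 ± 0.22 (largest adjusted p = 0.00805). Without replicate 3 the 4 h EGR1 differences of MKN1 and MKN7 (-3.16 and -1.84) and the NAB2 differences of the same lines (-0.75 and -0.78) were not called, and without replicate 2 that of EGR1 in MKN7 at 4 h was not (-2.42). All other EGR1 differences from Hs746T were called in each alternative. With the replicate number as a block 28 of 72 were called, with the share of all genes in that fit not given here. These included differences from Hs746T at 4 h for EGR4 in MKN1 (-1.63) and MKN7 (-1.84) and for NAB2 in NCI-N87 (-0.52). With edgeR and no replicate block, no member was called for a difference in the EGF effect between MKN1 and Hs746T, where 4.42% of comparisons over genes were. EGR2 at 4 h was nearest (log2FC difference 2.22 ± 0.65, adjusted p = 0.0846). With the replicate number as a block that difference was 2.27 and called (adjusted p = 0.000103, the lowest of 8 alternatives, the highest being 0.781), and 3 of 12 were. The share of all genes is not given for that count either. Hs746T also differed from the other lines in its marker genes and in its low untreated EGR levels, and the part of these in its treatment values was not tested.

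Other immediate early genes were lowered by afatinib in the same 3 lines as EGR1. The list was FOS, FOSB, JUN, JUNB, IER2, ATF3, NR4A1 and MYC, of which FOSB and JUNB were listed at 0 in every library and 6 were tested. After afatinib 2 of 6 were regulated in MKN1 at 4 h (FOS and MYC), 4 of 6 at 24 h (FOS, MYC, NR4A1 and ATF3), 1 and 2 of 6 in MKN7 and 3 and 2 of 6 in NCI-N87, all lower. Of all genes tested, 0.439% and 1.02% were lower in MKN1, 1.59% and 3.25% in MKN7 and 1.22% and 11.5% in NCI-N87 at 4 h and 24 h. The median log2FC of the 6 lay between -1.07 and -0.55 over these comparisons, and the median of all genes between 0.01 and 0.04. MYC, a driver of proliferation, was lower in all 6, with log2FCs from -2.11 to -1.34. FOS had its largest changes in NCI-N87, with log2FCs of -3.12 ± 0.46 at 4 h and -3.72 ± 0.47 at 24 h. After 4 h of EGF in MKN1 only MYC of the 6 was regulated (log2FC 1.32 ± 0.23), where 1.23% of genes were higher.

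Of SRF, ELK1, ELK3, ELK4, MRTFA and MRTFB, none was regulated by afatinib in MKN1, NCI-N87 or Hs746T, and only ELK3 in MKN7 at 24 h (log2FC -1.20 ± 0.15, adjusted p = 1.16e-06), where 3.25% of genes were lower. ELK3 was higher after 24 h of EGF in MKN1 (1.12 ± 0.13), where 2.11% of genes were. Of the 11 NuRD subunits, through which the NAB proteins act, 2 were regulated after 24 h of afatinib in NCI-N87, MBD3 with a log2FC of -1.002 ± 0.10 and GATAD2A with -1.10 ± 0.14, and none in the other lines. In that comparison 11.5% of all genes were lower, so that 2 of 11 is near the background. Of 3 other factors with GC-rich sites, WT1 was lower in MKN7 at 24 h (-1.15 ± 0.44, adjusted p = 0.0316) and no other call was made with afatinib.

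Of the genes reported as EGR targets, only some were regulated after afatinib. Of the 14 listed, 12 were tested. After afatinib 1 was regulated in MKN1 at 4 h and 2 at 24 h, 2 in NCI-N87 at 4 h and 5 at 24 h, all lower. In MKN7 none was regulated at 4 h and 2 were higher at 24 h. There 10.3% of all genes were higher, so that 2 of 12 is near the background. Of all genes tested, 0.439% and 1.02% were lower in MKN1 and 1.22% and 11.5% in NCI-N87 at 4 h and 24 h. F3, the tissue factor gene, was lower in MKN1 (log2FC -1.70 ± 0.22 at 4 h and -1.62 ± 0.22 at 24 h) and in NCI-N87 (-2.57 ± 0.13 and -3.51 ± 0.14). TGFB1, a growth factor gene, had a log2FC of -1.99 ± 0.18 in NCI-N87 at 24 h. The 2 that were higher in MKN7 were MMP14, a membrane metalloprotease (1.46 ± 0.17), and ID3, an inhibitor of DNA binding (1.68 ± 0.25). In NCI-N87 at 24 h the list's median log2FC was -0.55 beside 0.03 for all genes, in the comparison in which 11.5% of all genes were lower.

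Over the 44 condition means, each centered on its line and time point, EGR1 was most like DUSP6 (Pearson r = 0.965), SPRY4 (0.960), SPRY2 (0.956), DUSP5 (0.952) and FOSL1 (0.948) among 14039 protein-coding genes. DUSP and SPRY genes encode inhibitors of the MAPK and receptor tyrosine kinase cascades. EGR2 was most like HES1 (0.873), EGR3 most like SGK1 (0.907) and EGR4 most like CTGF (0.933), and EGR4 was among the 5 nearest genes of EGR2 (0.850). NAB2 was most like CBX3 (0.973) and NAB1 most like VEZT (0.934). Among the members themselves r was between 0.752 and 0.853 for pairs of EGR genes, 0.864 for EGR1 and NAB2, 0.690 for EGR1 and NAB1 and 0.528 for NAB1 and NAB2. The means share libraries and untreated controls within a line, so these values describe the pattern and carry no test.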

How the data were processed

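Poly(A) RNA of the 4 cell lines was sequenced from directional paired-end libraries. The deposited values are raw counts per Ensembl gene identifier, 1 file per library, which the authors made after trimming with Trim Galore and alignment with STAR to hg38, per the submitters' processing notes. The counting program, its annotation and its strand setting are not given in the sources used here. Groups and replicate numbers came from the sample labels. Depth set a floor of 3 counts per library, and floors cover counting error only.

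Counts were tested as deposited with edgeR 4.0.16 (R 4.3.3), using TMM scaling, filterByExpr (minimum count 10, minimum total count 15) and the quasi-likelihood F test, with 1 mean per treatment and time point. Each line was fitted with all its libraries, and differences between lines came from 1 fit of all libraries. Benjamini-Hochberg adjustment ran over all genes tested. A gene was regulated at FDR below 0.05 and log2FC above 1 or below -1. Differences of effects or of untreated levels were called at FDR below 0.05. SE was taken as the log2FC divided by the square root of F, and approximate 95% intervals as the log2FC ± 1.96 SE. The filter, tests and contrasts were checked on simulated counts. DESeq2 1.42.0, other filters and scalings, a replicate block, leaving out each replicate number, a fit of the compared groups alone and, in the fit of all libraries, the 2 series of sample numbers in the labels were the alternatives. Those series are nested in the replicate numbers.

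Deviations from group means correlated at a mean r of 0.382 between same-numbered libraries of a line and time point (324 pairs) and -0.187 between others (648 pairs). Every same-numbered pair was above 0.1 except in MKN1 at 24 h, where r ran from -0.0184 to 0.432 with a mean of 0.241. By that rule the numbers pair the libraries elsewhere. The main tests left that pairing out, and the fits with the replicate number as a block include it. Labels say biological triplicates of a cell line, so p-values measure the spread between these cultures.

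Gene positions and exon lengths are from GENCODE 29, which held 56813 of the identifiers, and promoter windows from RefSeq. The members are reported in every comparison. List examples are the called genes with the smallest p, and likeness is the Pearson r of log2 CPM (prior count 2) over condition means, among genes that reach 1 CPM. Members and lists were chosen with earlier results of these data known.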

Additional observations from a re-analysis of the deposited data

Results flagged for a closer look

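Several effects differed between time points or lines when the difference itself was tested with edgeR. They are given here as log2FC differences, with no weighing of causes.

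Afatinib lowered a gene further at 24 h than at 4 h for EGR4 (-1.54) and NAB2 (-0.73) in MKN1, for EGR1 (-1.87) and NAB2 (-0.94) in MKN7 and for NAB2 (-1.19) in NCI-N87. Of all genes, 1.43% had a lower effect at 24 h in MKN1, 9.28% in MKN7 and 20.5% in NCI-N87. Both MKN1 calls were lost without replicate 1, 2 or 3. In MKN7 that of EGR1 was lost without replicate 2 and that of NAB2 without replicate 1 or 3. The EGF effect in MKN1 was lower at 24 h than at 4 h for EGR2 (-3.65), EGR3 (-2.15), EGR4 (-1.34) and NAB1 (-0.30). Of all genes, 4.85% had a lower EGF effect at 24 h, and none of these EGF differences was called without replicate 1.

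The 4 h afatinib effect on EGR1 was lower than in Hs746T by -3.58 in MKN1, -2.37 in MKN7 and -4.61 in NCI-N87. The MKN1 call was lost without replicate 3 and the MKN7 call without replicate 2 or 3. The 4 h effect on EGR1 was weaker in MKN7 than in NCI-N87 by 2.24, a call lost without replicate 1, 2 or 3 (1.96, 1.52 and 2.89) and with library size alone. At 24 h the EGR1 effect was lower than in Hs746T by -4.60 in MKN1, -4.07 in MKN7 and -4.93 in NCI-N87.

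EGR2 at 24 h was lowered more in MKN1 than in NCI-N87 (-2.91) or Hs746T (-3.49), and more in MKN7 than in NCI-N87 (-1.82) or Hs746T (-2.41). EGR4 at 24 h was lowered more in MKN1 than in NCI-N87 (-2.05) or Hs746T (-2.92). Of these 6 differences, those of EGR2 between MKN1 and Hs746T and between MKN7 and Hs746T were lost without replicate 3 (-3.45 and -1.77), that between MKN7 and NCI-N87 without replicate 2 or 3 (-2.40 and -1.20), and those of EGR4 without replicate 2 (-1.85) and without replicate 1 or 3 (-1.88 and -3.14) respectively.

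NAB2 at 24 h was lowered more than in Hs746T in MKN1 (-0.87), MKN7 (-0.97) and NCI-N87 (-1.53), and less in MKN1 than in NCI-N87 (0.66). NAB1 at 24 h was lowered more in NCI-N87 than in MKN1 (MKN1 minus NCI-N87, 0.53) or Hs746T (-0.45). Without replicate 3 these NAB differences were not called except that of NAB2 between NCI-N87 and Hs746T.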

How the results depend on the processing

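Over 10 alternatives, 75 called member comparisons were called each time they could be fitted, 52 lost their call in at least 1 alternative, and 1 value turned its direction. That was untreated EGR1 in MKN1 against NCI-N87 at 4 h, with log2FCs between -1.41 and 0.15 when 1 replicate number was left out, the last without replicate 2. Leaving out a number removes a library from every group, so fewer libraries were tested. Those counts of calls ran from 1 to 4 after EGF (4 with all libraries), 0 to 3 after EGF + cetuximab (3), 0 to 3 between untreated time points (3), 0 to 4 for the time difference of the EGF effect (4), 2 for that of the afatinib effect whichever number was left out (5) and 7 to 18 for afatinib effects between lines (19). The lowest value came without replicate 3 for the last and without replicate 1 for the other ranges.

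Requiring 10 counts in every library leaves fewer genes to test, with 2 calls after EGF, 12 for afatinib effects between lines and 30 for untreated levels between lines (48). In the comparison of afatinib with cetuximab (0 calls), DESeq2 gave 2, the replicate block 2, the compared groups alone 1 and no filter 1. The compared groups alone gave 3 calls for the time difference of the afatinib effect, and the cause was not tested. The replicate block gave 1 call for EGF + cetuximab against EGF, EGR3 in MKN1 at 24 h (-1.08), 8 for the time difference of the afatinib effect and 3 for the EGF effect of MKN1 against Hs746T, of which 2 were at 24 h. It made 29 calls that were not made without it and lost none. Shares of all genes called in the alternatives are not given here. A rise in these counts therefore cannot be read as a result about the members. Same-numbered MKN1 libraries at 24 h correlated at a mean r of 0.241, against -0.121 between others, but not every pair was above 0.1. The block's MKN1 calls at 24 h are therefore given here and not as paired results. The time differences of EGR1 and EGR3 for afatinib (-1.20 and -2.07) and of EGR1 for EGF (-1.29) are of that kind. The series of sample numbers as a term gave 20, 49 and 0 calls for afatinib effects, untreated levels and EGF effects between lines.

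With library size alone in place of TMM, the median log2FC of all genes moved by between -0.20 and 0.31 over the 36 comparisons with untreated cells, and by more than 0.1 in 8. For 24 h of afatinib in NCI-N87 the shift was 0.26, and no called member turned its direction with it. Total counts set the precision for EGR2 to EGR4, where few reads were counted.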
